A study of Mus musculus with 2 samples.

Results

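Cells make cholesterol from acetyl-CoA through mevalonate, squalene and lanosterol, and make fatty acids from the same precursor. Transcription factors of the Srebp family switch on both routes when membrane sterol is low: Scap carries the Srebp precursor out of the endoplasmic reticulum for cleavage, and the Insig proteins hold it back when sterol is plentiful. Surplus sterol leaves through ABC transporters such as Abca1 and Abcg1, which liver X receptors control. Fibroblasts, like other cells, draw on both routes to build membrane.

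The module described here holds 34 genes of these routes, taken by symbol from the 23365 genes of the deposited table, and all 34 were found there. They comprise 17 sterol synthesis enzymes, 5 Srebp regulators, 7 genes of fatty acid and glycerolipid synthesis and 5 genes of sterol export and transport. The RNA came from mouse embryonic fibroblasts, connective tissue cells grown from embryos, either wild type or lacking TET1 and TET2, the enzymes that oxidize methylated cytosine. There was 1 RNA-seq library per genotype. The labels do not give the age of the embryos, the passage of the cultures, the knock-out alleles, or whether cells were pooled or cloned. The deposited table names its sides condition A and condition B without tying either to a genotype, so ratios below are those of condition B over condition A, and which genotype either stands for is unknown here. The separate values of the conditions were not used, because their column names match neither sample, so each gene is given by its mean over both conditions and by its ratio. Without replicates no ratio has a replicate check or a standard error, and the authors' p-values compare a pair of libraries rather than genotypes. In bulk RNA, fewer cells of a type and less RNA per cell cannot be told apart.

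Per the authors' deposited table, Tet1 was 3.54-fold (adjusted p = 0.851) and Tet2 1.67-fold (adjusted p = 1) below condition A in condition B. These values do not name the knock-out side, because reads from a deleted exon are not separated. The library depths were not analysed here. The mean normalized counts, which are gene counts divided by the authors' size factors and averaged over both conditions, add up to 58127871 over the table. Some fibroblast genes were abundant, with Col1a1 at 312018, Col1a2 at 296200, Fn1 at 550534 and Vim at 121413 mean normalized counts per the authors' deposited table. Other markers of the fibroblast list were far lower, among them Dcn at 4688, Pdgfra at 2254 and Lum at 395. Several defining genes of other lipid-handling cells were near or at 0, and others in the same lists were not. Plin1, Cidec, Lep and Retn of adipocytes were listed at 0 and Adipoq at 0.474, whereas Pparg, Fabp4 and Cebpa, which fibroblasts can also express, had means of 1140, 408 and 387. The macrophage genes Adgre1, Itgam and Ptprc lay at 0, 2.0 and 3.53, but Cd14 and Lyz2 at 154 and 94.7. The hepatocyte genes Ttr and Alb lay at 0 and 1.0, and Apob at 361.

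Across the module, genes of synthesis lay mostly below equal levels in condition B, while 4 of 5 genes of export and transport lay above. Of those 4, Abca1 and Npc1 were near equal, at log2 ratios of 0.05 and 0.17 per the authors' deposited table. Abcg1 rests on a mean of 75.2. Ratios below 1 were found for 15 of 17 sterol synthesis genes, 6 of 7 fatty acid and glycerolipid genes, 3 of 5 Srebp regulators and 1 of 5 export and transport genes. Among all 12401 genes whose mean normalized count was 50 or more (the minimum mean), 52.8% had a ratio below 1, and among the 8336 genes with a mean of at least 1000, a level that 31 of the 34 members reach, 51.9% did. The differences were small in size. A 2-fold difference (a log2 ratio of 1 or more in size, the size rule) was met by 2 members, Acaca toward condition A and Abcg1 toward condition B. Of all 12401 genes, 9.60% were at least 2-fold lower in condition B and 8.31% at least 2-fold higher. Among genes with a mean of at least 1000, 5.60% were at least 2-fold lower, so the members do not exceed the background by this rule.

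No member passed the authors' comparison. All 34 have an adjusted p of 1 per the authors' deposited table, which comes from DESeq and is called here at a cut-off of 0.1, while 2.29% of the 17339 genes with a p-value are under that cut-off. At an unadjusted p under 0.05 the members again count 0, against 6.28% of all genes, and the lowest unadjusted p of a member is 0.101, for Acaca. Between mean normalized counts of 1000 and 70000, the range of most members, the smallest log2 ratio that passed the cut-off was 1.97 in size. Differences of the size seen in the module were therefore not detectable by that comparison, and their absence is not shown.

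**Figure D1:**
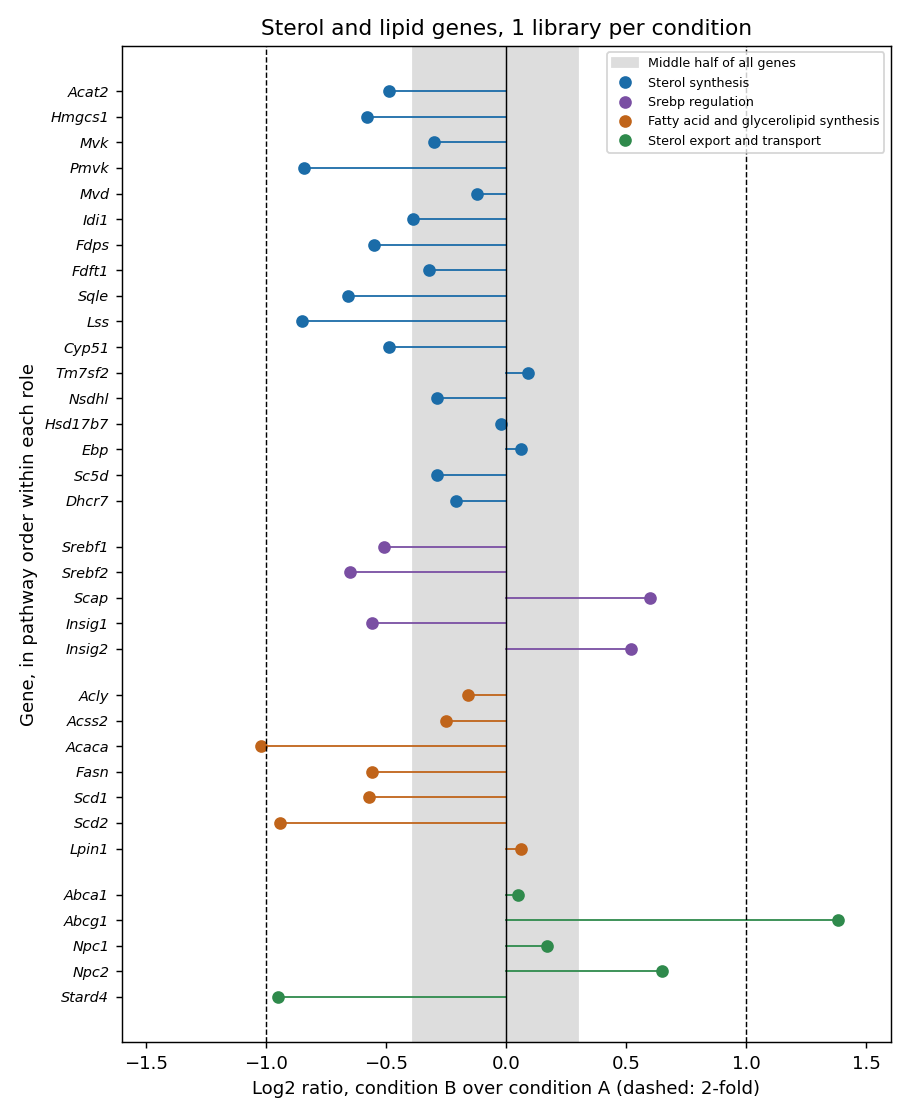
Log2 ratio of condition B over condition A for each of the 34 genes (x axis, points, coloured by role), in pathway order within each role (y axis). The grey band spans the quartiles of all genes with a mean of at least 50, from -0.39 to 0.30, and dashed lines mark 2-fold. Sterol synthesis points lie between -0.85 and 0.09, and Abcg1 and Acaca are the points past a dashed line. There is 1 library per condition, so points carry no error bar.

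The median log2 ratio was -0.32 over the 17 sterol synthesis genes, beside -0.04 over all genes at the minimum mean and -0.02 over those with a mean of at least 1000. Their range was -0.85 to 0.09. The enzymes were then divided at lanosterol, the first sterol of the route, a split chosen after the values were seen. In the early stages, from the thiolase to lanosterol synthase, 10 of 10 genes had a ratio below 1, with a median log2 ratio of -0.52. In the later stages 5 of 7 did, with a median of -0.21.

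In the mevalonate part, Acat2, the cytosolic thiolase that joins acetyl-CoA units, had a mean normalized count of 5839 and a log2 ratio of -0.49 per the authors' deposited table. Hmgcs1, the synthase that makes HMG-CoA, was the most abundant of the module's sterol synthesis genes before length is considered. It had a mean of 20933 and a level 33.2% lower in condition B. The kinases that phosphorylate mevalonate differed from each other in ratio. Pmvk, the second kinase, was 1.79-fold lower in condition B per the authors' deposited table (mean 1446, unadjusted p = 0.225), whereas Mvk, the first, was 1.23-fold lower (mean 3579). Mvd, the decarboxylase that yields isopentenyl diphosphate, was nearest to equal of these genes, 1.08-fold lower at a mean of 3216 per the authors' deposited table.

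The next enzymes build squalene from isopentenyl units and close it into a ring. Idi1, the isomerase of isopentenyl diphosphate, was 1.31-fold lower in condition B per the authors' deposited table, at a mean of 10094. Fdps, which makes farnesyl diphosphate, was 1.46-fold lower (mean 12353), and Fdft1, the squalene synthase, 1.24-fold lower (mean 8003). Sqle, the squalene epoxidase and a rate-controlling step, was 1.58-fold lower per the authors' deposited table, at a mean of 12957 (unadjusted p = 0.286). Lss, the cyclase that makes lanosterol, had the lowest ratio of the module's sterol synthesis genes. It was 1.80-fold lower at a mean of 4572 per the authors' deposited table (unadjusted p = 0.180). Its log2 ratio of -0.85 stands at percentile 11.8 of all genes at the minimum mean. These 5 genes all lie on the condition A side, by different amounts, and none reached 2-fold.

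After lanosterol the ratios were nearer to equal. Cyp51, the demethylase that acts first on lanosterol, was 1.41-fold lower in condition B per the authors' deposited table (mean 13861). The dehydrogenase Nsdhl, of C4 demethylation, was 1.22-fold lower (mean 4278), and its partner Hsd17b7, a ketoreductase, was within 1.25% of equal (mean 5389). Tm7sf2, a sterol reductase, and Ebp, a sterol isomerase, had log2 ratios of 0.09 and 0.06 per the authors' deposited table at means of 774 and 1587. They are the module's 2 sterol synthesis genes on the condition B side. Sc5d, a desaturase, had a log2 ratio of -0.29 (mean 4923), and Dhcr7, which performs the last reduction to cholesterol in one branch of the route, one of -0.21 (mean 2369). The early and late stages overlap in ratio, since Mvd lies above Cyp51, Nsdhl, Sc5d and Dhcr7.

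Promoter sequence shows what the sterol genes share apart from their RNA. Srebp binds sterol regulatory elements and commonly acts beside NF-Y, a factor that binds CCAAT boxes. RefSeq promoter windows (GRCm38.p6, a later build than the authors') were matched by symbol for 26 of the 34 members, with 34 start sites, from 250 bases before to 50 bases after each start. Both strands were searched for the letters CCAAT, for CACGTG, an E-box that Srebp can also bind, and for TCACNCCAC, a core of the sterol regulatory element. The CCAAT letters occurred for 21 of 26 members (80.8%), beside 41.1% of all 27025 genes with a window and 43.3% of the 9231 such genes at the minimum mean. Of 14 sterol synthesis genes with a window, 13 held CCAAT. Counted by start site, the share was 64.7% for members and 37.4% for all 32851 starts. CACGTG occurred for 6 of 26 members (23.1%), beside 8.09% of all genes and 1104 of the 9231 at the minimum mean. The 9-letter core occurred for 1 of 26 members, Hmgcs1, beside 1.44% of all genes. No test was made of these shares, and letters in a window do not show binding.

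The 5 windows that follow are the 150 bases before the start site of sterol synthesis genes with a promoter entry. Only windows that overlap neither an annotated exon nor the gene's own RefSeq span are printed, to show where the letters fall. Each is written 5′ to 3′ on the gene's strand and ends at the base before the start site. Capitals mark the searched letters on either strand, so ATTGG is CCAAT read from the other strand, and in the first window the longer run in capitals is the sterol element core. The windows lie at chr13:119690201-119690350 (plus strand) for Hmgcs1, chr3:89454391-89454540 (plus) for Pmvk, chr8:122443423-122443572 (minus) for Mvd, chrX:8193513-8193662 (minus) for Ebp and chr9:42264301-42264450 (minus) for Sc5d, all in GRCm38.p6.
Hmgcs1: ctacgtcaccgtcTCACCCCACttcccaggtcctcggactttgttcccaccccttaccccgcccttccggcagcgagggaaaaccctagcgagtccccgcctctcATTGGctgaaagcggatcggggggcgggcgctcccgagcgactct
Pmvk: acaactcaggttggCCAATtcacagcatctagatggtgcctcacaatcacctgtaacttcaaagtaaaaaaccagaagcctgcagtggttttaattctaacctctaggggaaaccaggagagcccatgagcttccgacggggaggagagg
Mvd: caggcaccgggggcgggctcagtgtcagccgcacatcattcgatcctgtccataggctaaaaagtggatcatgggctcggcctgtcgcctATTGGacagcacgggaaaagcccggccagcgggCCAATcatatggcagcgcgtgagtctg
Ebp: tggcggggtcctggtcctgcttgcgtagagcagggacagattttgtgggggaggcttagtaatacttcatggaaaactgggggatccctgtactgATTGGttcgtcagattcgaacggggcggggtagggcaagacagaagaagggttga
Sc5d: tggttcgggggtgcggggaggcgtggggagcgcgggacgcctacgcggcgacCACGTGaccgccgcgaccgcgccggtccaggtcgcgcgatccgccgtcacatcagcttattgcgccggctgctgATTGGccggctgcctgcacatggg

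In these windows the CCAAT letters begin at base -45 for Hmgcs1, -136 for Pmvk, -60 and -27 for Mvd, -55 for Ebp and -24 for Sc5d, counted back from the start site. The sterol element core of Hmgcs1 begins at -137 and the E-box of Sc5d at -98. The genes printed span log2 ratios from -0.84 (Pmvk) to 0.06 (Ebp). All windows printed hold CCAAT letters, so they cannot show whether the letters go with the ratio.

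The regulators did not share a direction. Srebf2, which encodes the factor for sterol genes, was 1.57-fold lower in condition B per the authors' deposited table, at a mean of 17450. Srebf1, which encodes the factor for fatty acid genes, was 1.43-fold lower at a mean of 7515. Insig1, itself a classical Srebp target, had a log2 ratio of -0.56 (mean 7413), close to those of Hmgcs1 and Fdps. Its relative Insig2, which is less dependent on Srebp, lay on the other side at 0.52 (mean 3237) per the authors' deposited table. Scap, the escort of Srebp, also lay on the condition B side, 1.51-fold higher at a mean of 6711 per the authors' deposited table (unadjusted p = 0.337). The regulators thus divide into 3 genes on the side of the synthesis enzymes and 2 on the opposite side, with a median log2 ratio of -0.51.

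Fatty acid synthesis lay lower in condition B for its core enzymes. Acaca, the acetyl-CoA carboxylase that makes malonyl-CoA, had the lowest ratio of the module, 2.03-fold lower at a mean of 9032 per the authors' deposited table (unadjusted p = 0.101). It stands just past the 2-fold rule and falls short of it when ratios are centred on the median or the trimmed mean of all genes, a shift of -0.04 in log2. Fasn, the fatty acid synthase, was 1.47-fold lower at a mean of 30920 per the authors' deposited table. The desaturases that make monounsaturated fatty acids were both lower, Scd2 by 1.92-fold at a mean of 68955 per the authors' deposited table (unadjusted p = 0.123) and Scd1 by 1.48-fold at a mean of 14164. Scd genes are close paralogs, and nothing states how reads shared between them were counted, so their separate values are uncertain. Acat2 likewise has a close paralog, Acat3.

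The enzymes that supply acetyl-CoA differed less. Acly, which splits citrate, was 1.11-fold lower in condition B at a mean of 26857 per the authors' deposited table, and Acss2, which activates acetate, 1.19-fold lower at a mean of 870. Lpin1, a phosphatidate phosphatase on the way to triglycerides, had a log2 ratio of 0.06 (mean 2981). Over the 7 genes the median log2 ratio was -0.56, with a range from -1.02 to 0.06. At a limit of 1.5-fold, 7 of the 34 members were lower and 3 higher in condition B, or 3 and 0 of the 17 sterol enzymes, beside 17.4% and 13.9% of all genes at the minimum mean. For the sterol enzymes the lower count is thus near the background, and none lies past 1.5-fold on the higher side.

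**Figure D2:**
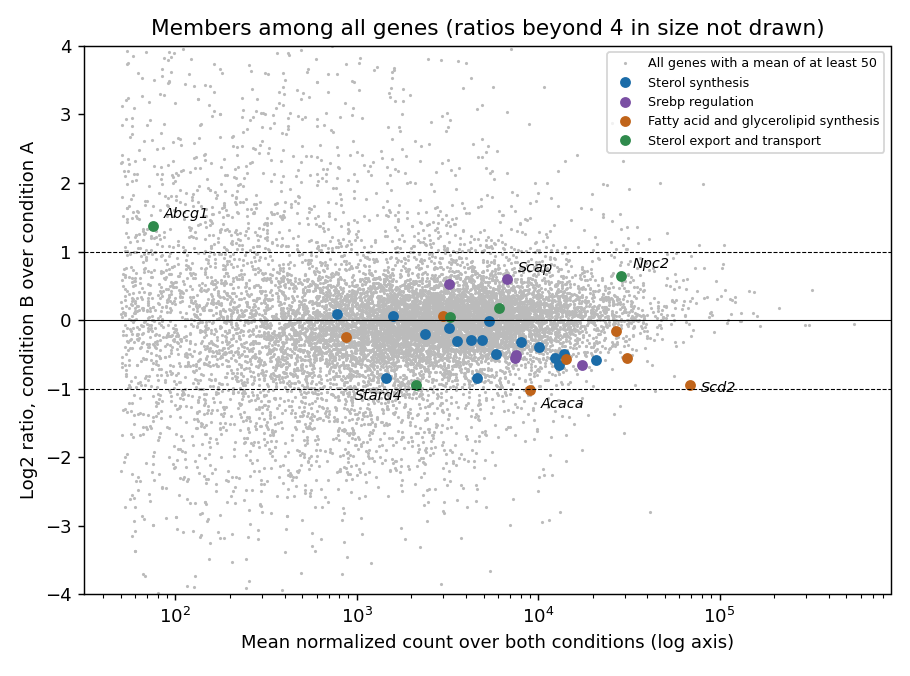
Mean normalized count over both conditions (x axis, log scale) against the log2 ratio of condition B over condition A (y axis) for all genes with a mean of at least 50 (grey) and the 34 members (coloured by role). Dashed lines mark 2-fold. Members of the synthesis routes sit at high means and mostly between -1 and 0, and Abcg1, at a mean of 75.2, sits where the grey points spread widely.

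Export and transport genes had a median log2 ratio of 0.17 over 5 genes, with a range from -0.95 to 1.38. Abca1, the main cholesterol exporter to lipid-poor apolipoprotein, was close to equal, with a log2 ratio of 0.05 at a mean of 3279 per the authors' deposited table. Abcg1, which exports sterol to lipoprotein particles, was 2.60-fold higher in condition B but rests on a mean of 75.2 per the authors' deposited table (unadjusted p = 0.403), and it drops out of the description at a minimum mean of 200. Abca1 and Abcg1, both targets of liver X receptors, therefore differ in ratio at very different levels. Npc2 and Npc1, which pass cholesterol out of the lysosome in turn, had log2 ratios of 0.65 (mean 28754, unadjusted p = 0.289) and 0.17 (mean 6096) per the authors' deposited table. Stard4, a cytosolic sterol carrier and Srebp target, lay with the synthesis genes, 1.94-fold lower at a mean of 2119 per the authors' deposited table (unadjusted p = 0.152). The other 4 genes lie on the condition B side, but Abca1 and Npc1 lie within the quartiles of all genes at the minimum mean, -0.39 to 0.30. Of all genes at that minimum, 52.8% had a ratio below 1.

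Levels can be compared between genes only per length, so the mean normalized count was divided by transcript length in kilobases (kb). Scd2 had the highest level of the module on this scale, at 12641 per kb, followed by Fdps at 8939, Npc2 at 8716, Acly at 6068 and Hmgcs1 at 6043 per kb. Scd1 stood at 2931 per kb, below its paralog, and Srebf2 at 3437 per kb, above Srebf1 at 1748. Insig1 stood at 2749 per kb and Insig2 at 1200. At the low end were Abca1 at 320.0 per kb, Acss2 at 241 and Abcg1 at 12.9. With 1 mean per gene no spread is known, so neighbours in this order are not separated. The order also rests on 1 annotated transcript length per gene, such as 3.3 kb for Npc2 and 5.46 kb for Scd2. Other transcripts of these genes were not tried, and a shorter one would give a higher level.

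**Figure D3:**
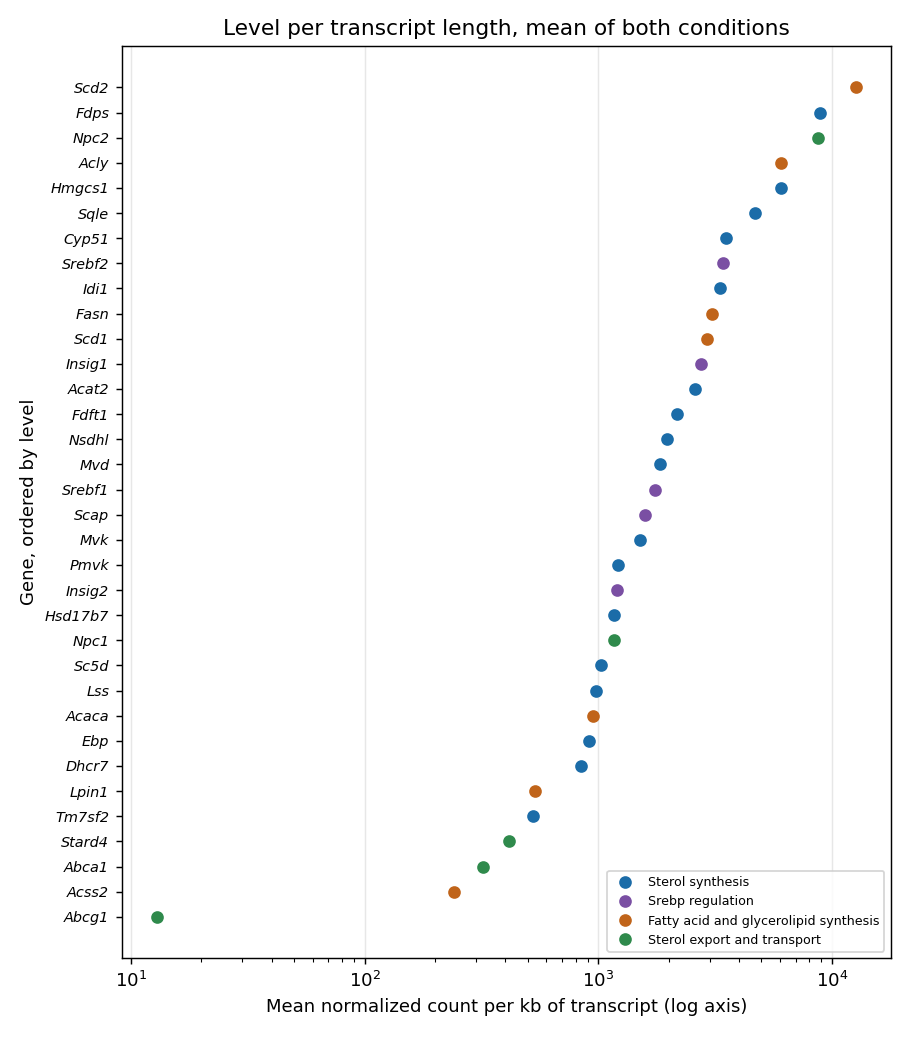
Mean normalized count per kb of transcript (x axis, log scale) for the 34 members in order of level (y axis), coloured by role. Values are means over both conditions, so points carry no error bar. Scd2 is highest at 12641 per kb and Abcg1 lowest at 12.9 per kb.

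Some members overlap other genes, and the library kit does not mark strand. In the GENCODE M21 annotation, exons of 12 members overlap exons of another gene, and for 7 of them that gene codes for protein. Fdft1 overlaps Ctsb, an abundant lysosomal protease gene, Cyp51 overlaps Akap9, Srebf1 overlaps Rai1 and Acss2 overlaps Gss and Ggt7, all on the opposite strand. Npc1 overlaps Rmc1 likewise. Tm7sf2 overlaps Vps51 on the same strand, as does Fdps a predicted gene. The remaining members with an overlap are Hmgcs1, Idi1, Lss, Scap and Scd2, which overlap genes not annotated as coding for protein. Nothing states how such reads were assigned, so the values of all 12 members are uncertain.

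Other genes of the routes were counted from lists chosen, like the members, with earlier results of these data known. Of 15 further genes of sterol synthesis, uptake and Srebp processing, 9 had a ratio below 1 and the median log2 ratio was -0.31. The size rule was met by 2 of these genes, both lower in condition B, and 0 passed the authors' cut-off. Lbr, a sterol reductase that is also a nuclear envelope protein, was 2.37-fold lower at a mean of 2872 per the authors' deposited table (adjusted p = 0.869). Of 25 further fatty acid and glycerolipid genes, 21 reached the minimum mean and 14 of these had a ratio below 1, with a median of -0.32. At 2-fold, 3 were lower and 1 was higher in condition B, and 1 passed. That gene, Lpin3, a phosphatidate phosphatase like Lpin1, was 6.02-fold lower in condition B at a mean of 1028 per the authors' deposited table (adjusted p = 0.0393). Acsl3, an acyl-CoA synthetase, and Fads2, a polyunsaturated fatty acid desaturase, had log2 ratios of -1.42 and -1.05, and Acacb, the mitochondrial relative of Acaca, one of 1.58 at a mean of 219 per the authors' deposited table. These last genes did not pass.

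Of 16 further genes of sterol export, esterification and lysosomes, 15 reached the minimum mean, and 6 of these had a ratio below 1 and 9 above. The median log2 ratio was 0.29, and 2 genes met the size rule in each direction. Ch25h, which makes 25-hydroxycholesterol, an oxysterol known to hold Srebp inactive through Insig, was 8.12-fold higher in condition B at a mean of 679 per the authors' deposited table (adjusted p = 0.0191), and it was the gene of this list that passed. Apoe, a carrier of exported cholesterol, had a log2 ratio of 1.54 per the authors' deposited table (adjusted p = 0.551). Scarb1, a lipoprotein receptor, and Cyp27a1, a sterol hydroxylase, had log2 ratios of -1.06 and -1.70 per the authors' deposited table without passing. The receptor genes Nr1h2 and Nr1h3 of the liver X family, picked here after seeing their values, stood at log2 ratios of 0.32 and 0.41 per the authors' deposited table, at means of 3226 and 62.9.

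**Figure D4:**
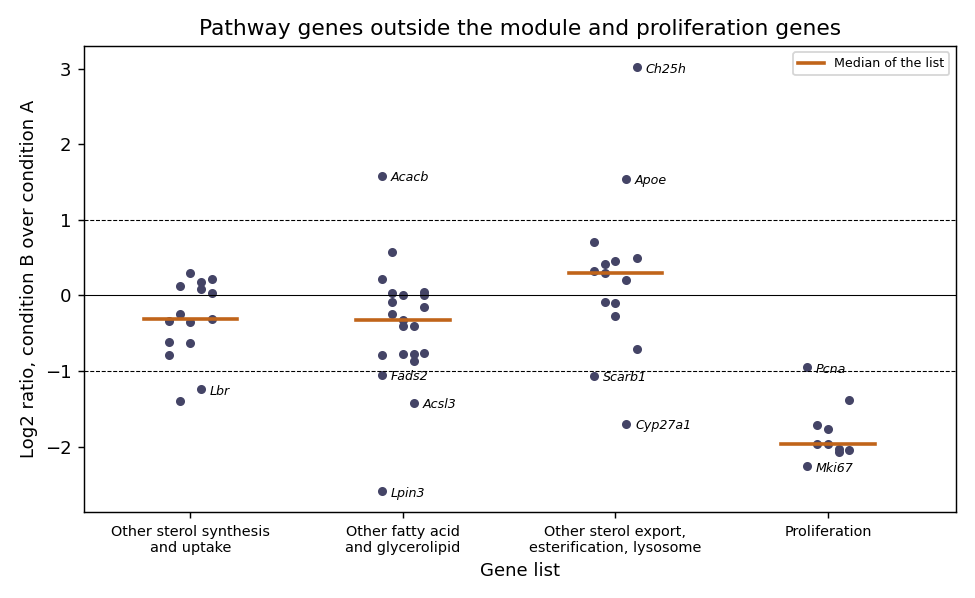
Log2 ratio of condition B over condition A (y axis) for genes at the minimum mean in 3 lists of pathway genes outside the module and in a list of proliferation genes (x axis). Orange bars are list medians, at -0.31, -0.32, 0.29 and -1.97 from left to right, and dashed lines mark 2-fold. Ch25h is the highest point at 3.02 and Lpin3 the lowest at -2.59.

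Proliferation genes lay on the same side as the synthesis genes and further from equal. Of 10 such genes, 10 had a ratio below 1, 9 were at least 2-fold lower in condition B and 3 passed the authors' cut-off, with log2 ratios from -2.26 (Mki67) to -0.95 (Pcna). Their part in the lower ratios of the sterol and fatty acid genes was not tested. Marker genes of other cell types were low but not all equal between conditions. Of 6 endothelial markers, 3 reached the minimum mean and all 3 were at least 2-fold higher in condition B, 1 of them passing, and the 6 means add up to 653. Of 9 macrophage markers, 4 reached the minimum mean, 2 higher and 1 lower by the size rule, with a sum over the list of 382. The adipocyte list, 9 genes with a sum of 1936, had 3 at the minimum mean (Fabp4, Pparg and Cebpa), all with a ratio below 1, and Pparg, at a log2 ratio of -1.40, met the size rule without passing the cut-off. Of 6 epithelial and 5 hepatocyte markers, 1 each reached the minimum mean, with sums of 151 and 374. Of 11 fibroblast markers, 5 were at least 2-fold higher in condition B and 0 lower, and 4 passed the authors' cut-off (Dcn, Thy1, Pdgfra and Lum, all higher in condition B). The part of these markers in the ratios of the module was not tested.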

How the data were processed

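RNA of mouse embryonic fibroblasts was sequenced in 1 wild-type and 1 TET1/TET2 knock-out library. Per the labels' protocols, TRIzol RNA was treated with DNase and prepared with TruSeq RNA v2. Alignment with TopHat2 2.0, the comparison with DESeq and the build mm9 are named in the submitters' processing notes, and no source used here states the counter, annotation or dispersion settings. The deposited table holds a signal, the authors' mean over both conditions of counts divided by size factors. It also holds the authors' deposited ratio (fold) of condition B over condition A, its log2 value without pseudocount, and raw and adjusted p-values, which equal a Benjamini-Hochberg adjustment over 17339 genes. The 2 columns of values per condition match no sample by name and were not used, so the planned knock-out over wild-type direction became condition B over condition A, and counting intervals were not computed.

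Members were matched by symbol. Genes with a mean of at least 50 formed the background, and ratios of 2-fold or more in either direction were counted. The named genes are all members and, from each further list, up to 4 with the largest ratios at the minimum mean; some genes that this takes are not reported here. The members and lists were chosen with earlier results of these data known. Lengths are those of the longest principal transcript in GENCODE M21 (27 members) or else the longest transcript. Scripts ran in Python 3.11.15 with pandas 2.3.3, and the size rule and centring were tested on simulated data. The simulation held counting noise only and no spread between libraries, so it does not show how reliable the ratios here are. No test across samples was possible with 1 library per group.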

Additional observations from a re-analysis of the deposited data

How the results depend on the processing

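The role medians kept their sign and moved by less than 0.1 in log2 under every alternative run: minimum means of 10, 200, none and 1000 (the last chosen after the data were seen), and centring on the median or the trimmed mean of all genes at the minimum mean (both -0.04, the trimming taking 30% of the ratios and 5% of the means off either end). Counts past the size rule were small and moved more. At 1.5-fold the counts were 3 for sterol synthesis (0 at 2-fold), 2 for Srebp regulation (0), 2 for fatty acid and glycerolipid synthesis (1) and 3 for export and transport (1). With a log2 ratio of at least 2 the last roles counted 0 each. Centring in either way left 0 fatty acid and glycerolipid genes, since Acaca lies at -1.02. A minimum mean of 200 or of 1000 left 0 export and transport genes, since Abcg1 has a mean of 75.2. No member had an adjusted p under 0.05 or under 0.1, and 0 had an unadjusted p under 0.05. Of 57 alternative values, 47 stayed within these limits and 10 moved. Many of the 47 could not have moved. Minimum means of 10 and none keep the same members, since no member has a mean under 50. Centring shifts every ratio by the same small amount, less than the limit of 0.1, so no role median could pass that limit. The mean per gene limits what can be seen for Abcg1, Tm7sf2 and Acss2, the 3 members with a mean under 1000. No paired analysis was possible because each genotype has 1 library.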
